A study of Mus musculus with 10 samples.

Results

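Ribosome assembly in the nucleolus was followed through 59 mouse genes for nucleolar assembly factors, small nucleolar ribonucleoprotein (snoRNP) proteins and the RNA polymerase I machinery. The genes were taken from a list of symbols, and a row was kept where its mean over the 10 libraries was at least 3 on the deposited regularized log scale. All 59 symbols passed, among 15223 rows that did, and the lowest member mean was 8.60 (Polr1e), so the threshold removed no listed gene. The list was drawn up with the Arrdc2 against GFP differences of these same libraries known, so counts and medians over its members are a description and not evidence of a direction. The fits were made over all tested genes, and no test was made over the list.

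The libraries came from C2C12 cells, labelled wild type, which grow as mouse myoblasts and fuse into myotubes when serum is lowered; here they grew on collagen and insulin was added for differentiation. On day 3 of differentiation the myotubes received an adenovirus carrying Gfp only (GFP group) or Arrdc2 together with Gfp (Arrdc2 group), and the samples are labelled 48 h, with 5 polyadenylated-RNA libraries in each group. Both groups therefore carry adenovirus and Gfp. Separate cultures are not stated for the libraries of a group, and p-values then measure the spread between these libraries only, which may be technical. Arrdc2 encodes an alpha-arrestin, an adaptor that links membrane proteins to ubiquitin ligases.

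Ribosomes begin in the nucleolus, where RNA polymerase I copies the ribosomal DNA into a long precursor. Box C/D and box H/ACA snoRNPs methylate and pseudouridylate that precursor, a large assembly called the small-subunit processome folds and cleaves its first part, and a series of GTPases, helicases and scaffold proteins builds the large subunit on the remainder. In muscle, ribosome number is one of the determinants of how much protein a fibre can make, and many genes of this pathway are known targets of the transcription factor MYC.

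Normalised reads below are read counts solved for from the deposited values and divided by a size factor per library. Depth lay between about 18930000 and 28650000 reads per library. The fewest reads of any member in any library was 322, and the median coefficient of variation of the members was 4.59% within GFP and 5.56% within Arrdc2. Reads of the mouse Arrdc2 gene lay between 89.8 and 124.3 in the GFP libraries and between 118.0 and 158.3 in the Arrdc2 libraries, overlapping groups with a 1.29-fold higher mean (limma adjusted p = 0.0178); whether virus transcripts were counted to it is not known here. All 8 myotube markers examined were present, with summed levels of 241387 to 258709 normalised reads in GFP and 223118 to 233542 in Arrdc2. The macrophage markers Ptprc, Adgre1 and Csf1r and the endothelial markers Pecam1 and Cdh5 stayed under 10 reads in every library. The macrophage marker Lyz2 reached 11.4 normalised reads and the endothelial marker Kdr 12.7. Cd68, also a macrophage marker, had 83.7 to 94.9 across the 10 libraries and was not called. Summed levels were 95.3 to 106.9 normalised reads in GFP and 92.5 to 105.8 in Arrdc2 for 5 macrophage markers, and 32.2 to 45.7 and 43.9 to 68.2 for 4 endothelial markers, of which Tek rose.

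Transcripts of the nucleolar genes were lower in the Arrdc2 libraries almost throughout. Of the 59 genes 52 fell and 1 rose, the small-subunit processome gene Wdr36. The remaining 6 were not called (limma on the deposited values, Benjamini-Hochberg adjusted p under 0.05 over all tested genes). Over all 15223 tested genes 30.3% were called, 15.8% lower and 14.5% higher. For 49 of the 59 members every Arrdc2 library lay below every GFP library, against 11.0% of all tested genes, and for 1 (Wdr36) every one lay above, against 8.71%. The balance of all calls moved with scaling, from 2212 higher and 2404 lower with the deposited values to 1766 higher and 2960 lower after median centring of the libraries and 3063 higher and 1774 lower by voom with total reads, while member calls were 52, 53 and 50 lower and 1 higher in each of these fits. The falls were modest in size. The median log2 difference was -0.25 for the members and 0.0027 for all tested genes, on a scale that shrinks differences, and the median ratio in recovered reads was 0.781, a fall of 1.28-fold. In recovered reads 43 members fell by at least 1.2-fold, 25 by at least 1.3-fold and 3 by at least 1.5-fold, against 7.20%, 4.12% and 1.93% of all tested genes that were called lower with falls of those sizes. In bulk RNA, fewer cells of a type and less RNA per cell cannot be told apart.

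**Figure D1:**
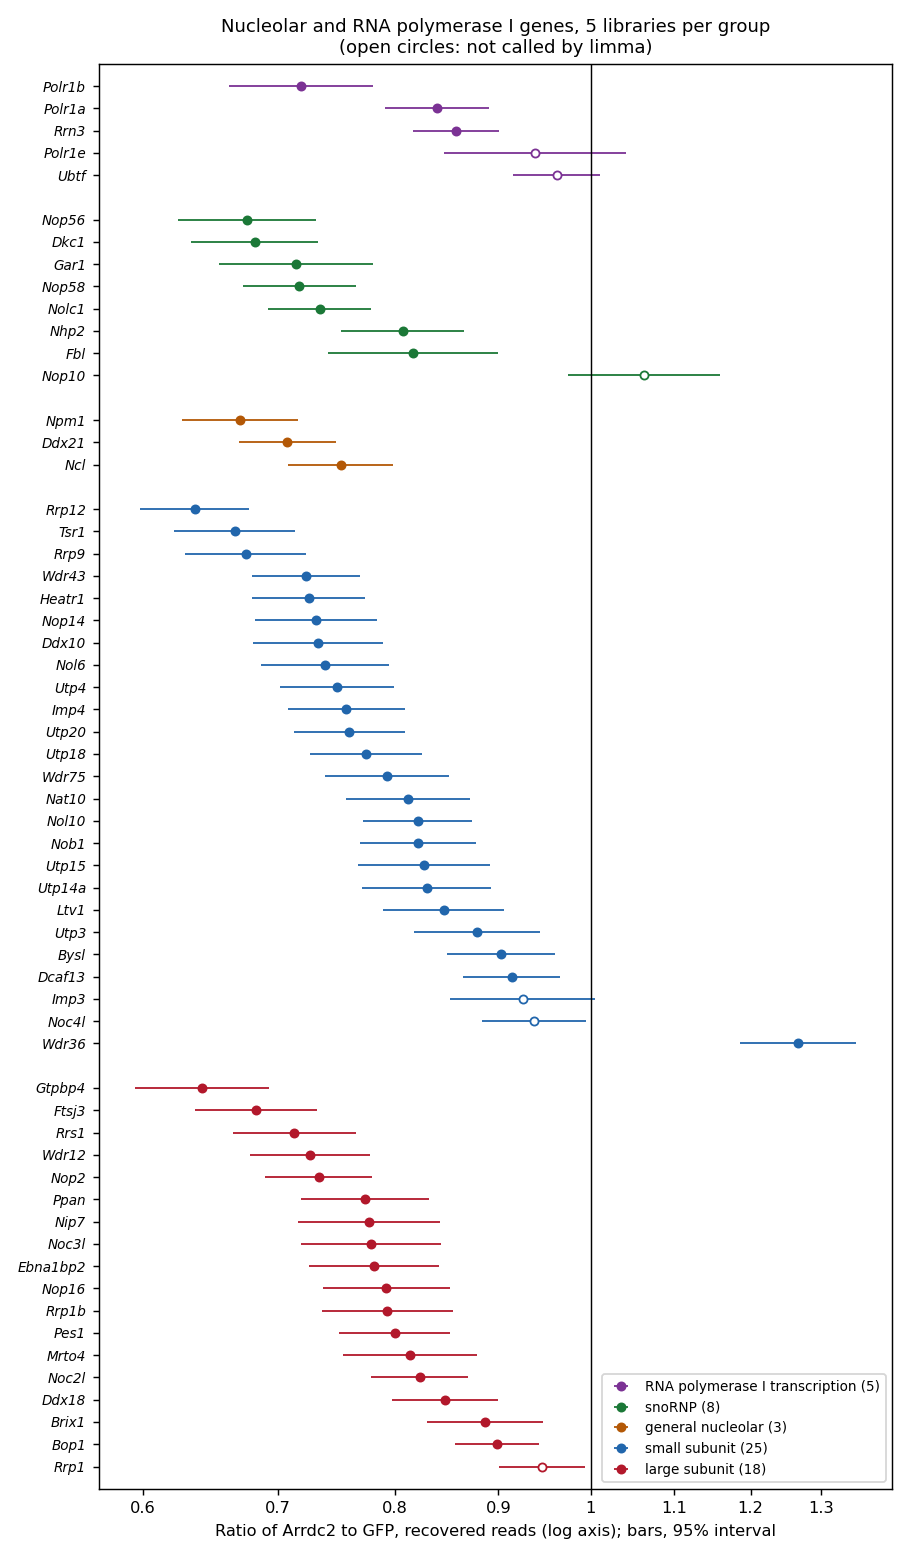
Ratio of Arrdc2 to GFP in recovered reads on a log axis for the 59 genes, ordered by role and then by ratio; points are voom estimates, bars their 95% intervals (5 libraries per group), and open circles genes that limma did not call. Nearly every point lies left of 1, Rrp12 and Gtpbp4 lie furthest left, and Wdr36 alone among the called genes lies right of 1.

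Set to 100% as the GFP mean of each gene, the geometric mean over the 59 members lay between 97.0% and 103.7% in the GFP libraries. In the Arrdc2 libraries it was 77.3%, 78.3%, 76.5%, 83.4% and 80.2% for libraries 6, 7, 9, 10 and 11. Arrdc2 library 10 was thus the closest to GFP, and it was the highest of the Arrdc2 libraries for 37 of the 59 members. By role, RNA polymerase I genes lay between 83.7% and 87.1% of GFP in the Arrdc2 libraries. The range was 73.7% to 85.3% for snoRNP proteins, 66.8% to 76.0% for the general nucleolar proteins, 77.8% to 83.2% for small-subunit factors and 75.5% to 83.2% for large-subunit factors. In none of these roles did an Arrdc2 library reach the lowest GFP library, and the differences between roles were not tested. Library 10 was highest of its group for 8 of 8 snoRNP genes, 13 of 18 large-subunit genes, 13 of 25 small-subunit genes and 1 of 5 RNA polymerase I genes. Without it, limma still called 52 members lower and 1 higher.

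**Figure D2:**
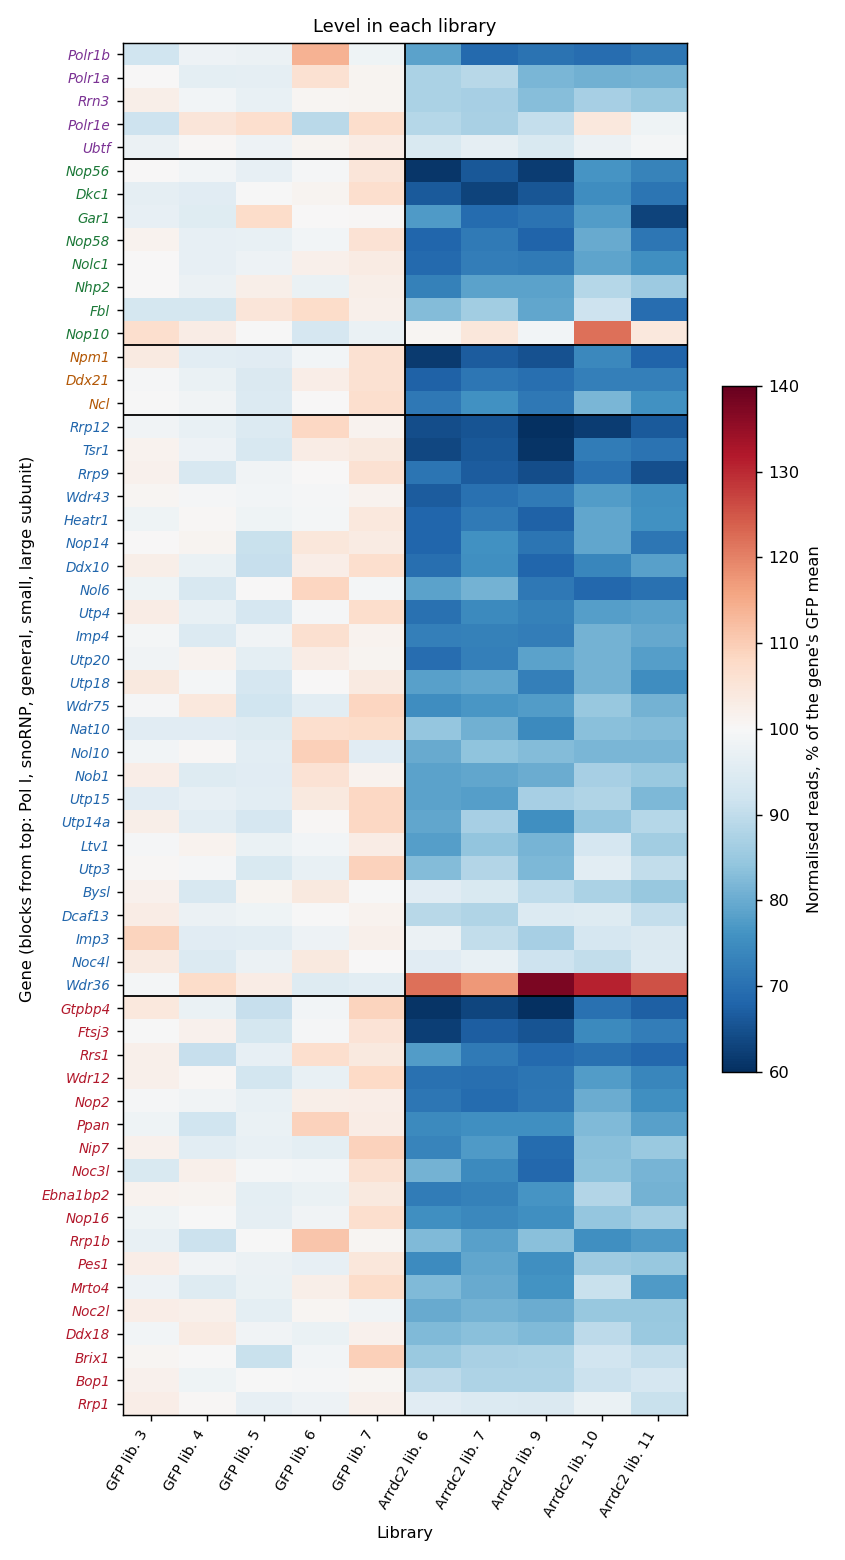
Normalised reads of each of the 59 genes (rows, grouped by role) in each of the 10 libraries (columns), as a percentage of the gene's GFP mean, with colours ending at 60% and 140%. The 5 Arrdc2 columns are blue in almost every row, palest in library 10 for many snoRNP and large-subunit genes, and Wdr36 is the red row.

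RNA polymerase I genes changed least among the roles by median, with 3 of 5 lower and a median log2 difference of -0.17. Counts and medians by role, here and below, stand against the 15.8% lower and the median of 0.0027 over all tested genes. Polr1b encodes one of the large catalytic subunits. It had 978, 1042, 1039, 1213 and 1047 normalised reads in GFP and 837, 734, 749.6, 739 and 758 in Arrdc2, where values here and below follow the column order, libraries 3 to 7 of GFP and then libraries 6, 7, 9, 10 and 11 of Arrdc2. Every Arrdc2 library lay below every GFP library, with library 6 the highest of its group, and the mean went from 1064 ± 87.9 to 764 ± 42.2 (SD, n = 5), a 1.39-fold fall with a 95% interval of 1.28 to 1.51 (log2 difference -0.32 ± 0.04 SE; limma adjusted p = 5.05e-06). Polr1a, the largest catalytic subunit, had 4527, 4333, 4352, 4786 and 4567 reads in GFP and 3940.1, 4014, 3685, 3644 and 3659 in Arrdc2. The groups did not overlap, and Polr1a fell 1.19-fold (95% interval 1.12 to 1.26; limma adjusted p = 0.00012).

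Rrn3 encodes the initiation factor that brings RNA polymerase I to the ribosomal DNA promoter and that growth signals act on. It had 4051, 3912, 3843, 3992 and 3999 normalised reads in GFP and 3462, 3439, 3289, 3429.9 and 3358 in Arrdc2. The groups lay apart, 3959 ± 82.1 against 3396 ± 71.1 (SD, n = 5), and Rrn3 fell 1.17-fold (95% interval 1.11 to 1.22; limma adjusted p = 7.9e-05). Its promoter is shown because it holds a pair of CACGTG E-boxes, the DNA letters that MYC and its partner MAX recognise, both before the start site (RefSeq, GRCm38.p6, chr16:13780449-13780698, plus strand, the 250 bases before the start; capitals mark CACGTG).
Rrn3: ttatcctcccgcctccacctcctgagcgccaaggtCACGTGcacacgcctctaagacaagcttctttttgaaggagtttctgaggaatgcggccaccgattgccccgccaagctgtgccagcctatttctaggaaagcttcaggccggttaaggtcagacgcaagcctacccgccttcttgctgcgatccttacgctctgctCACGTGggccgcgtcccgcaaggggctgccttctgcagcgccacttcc

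Polr1e, another polymerase subunit, was not called. Its reads were 368, 421, 428, 358 and 429.9 in GFP and 355, 349, 363, 418 and 395 in Arrdc2, overlapping groups (1.07-fold lower, 95% interval 0.961 to 1.18; limma adjusted p = 0.344). Ubtf, the protein that coats active ribosomal DNA, was not called either, with 3658, 3765, 3668, 3783 and 3859 reads in GFP and 3518, 3606, 3524, 3653 and 3713 in Arrdc2. Here 4 of 5 Arrdc2 libraries lay below the lowest GFP library but the difference was small (1.04-fold lower, 95% interval 0.99 to 1.09; limma adjusted p = 0.237). A fixed list of further genes for the polymerase and its factors held 11 tested genes, of which 4 fell and 0 rose. Taf1d and Taf1a, subunits of the promoter selectivity factor, fell 1.37-fold and 1.506-fold (limma adjusted p = 1.44e-06 and 8.15e-06), and the polymerase subunit gene Cd3eap fell 1.199-fold (limma adjusted p = 0.00122).

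Proteins of the snoRNPs fell in 7 of 8 cases, with a median log2 difference of -0.32. Nop56 and Nop58 are the paired scaffold proteins of box C/D particles. Nop56 had 3655, 3617, 3529, 3641 and 3825 normalised reads in GFP and 2233, 2414, 2269.8, 2788 and 2675 in Arrdc2. It spread more in the Arrdc2 group, where libraries 10 and 11 were highest, yet fell 1.48-fold with no overlap (95% interval 1.37 to 1.601; log2 difference -0.43 ± 0.04 SE; limma adjusted p = 3.47e-07). Nop58 had 4601, 4383, 4398, 4492 and 4802 reads in GFP and 3099, 3248, 3082, 3618 and 3222 in Arrdc2. Its groups did not overlap and it fell 1.395-fold (95% interval 1.31 to 1.49; limma adjusted p = 2.84e-07). Fbl, the methyltransferase of the same particle, had 707, 709, 798, 817 and 776 reads in GFP and 629.9, 656, 603, 698 and 530.1 in Arrdc2. The groups almost met, at 698 and 707, and the fall was smaller than that of the scaffolds, 1.23-fold (95% interval 1.11 to 1.35; limma adjusted p = 0.00242).

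Dkc1 is the pseudouridine synthase of box H/ACA particles, and Gar1, Nhp2 and Nop10 are its partner proteins. Dkc1 had 1469.5, 1456, 1522, 1542 and 1628 normalised reads in GFP and 1010.3, 959.6, 1000.4, 1146 and 1079 in Arrdc2. The groups were far apart, 1524 ± 68.3 and 1039 ± 73.4 (SD, n = 5), and Dkc1 fell 1.47-fold (95% interval 1.36 to 1.58; limma adjusted p = 1.93e-07). Gar1 went from a mean of 704 to 504 normalised reads and Nhp2 fell 1.24-fold, both without overlap. Nop10, the smallest protein of the particle, was the member of this role that was not called. It had 752, 726, 704, 658 and 686 reads in GFP and 711, 738, 697, 860.5 and 734 in Arrdc2, overlapping groups with library 10 standing high, and its ratio was 1.06 (95% interval 0.975 to 1.16; limma adjusted p = 0.303). Nolc1, a chaperone of both classes of particle, had 4246, 4096, 4161, 4323 and 4381 reads in GFP and 2918, 3071, 3037, 3348 and 3202 in Arrdc2. Its groups did not overlap and it fell 1.36-fold (95% interval 1.28 to 1.44; limma adjusted p = 2.01e-07). Of 12 further genes listed for these particles and their assembly 6 fell and 0 rose. They were led by Tcof1 (1.27-fold) and the paired ATPases Ruvbl2 (1.26-fold) and Ruvbl1 (1.22-fold). Tcof1 encodes treacle, a nucleolar protein also known from RNA polymerase I transcription, and was counted on this list only.

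All 3 general nucleolar proteins fell. Npm1 encodes nucleophosmin, an abundant chaperone of the granular part of the nucleolus. Its normalised reads were 11622, 10737, 10699, 11105 and 11903 in GFP and 6906, 7476, 7298, 8310.5 and 7611 in Arrdc2. The lowest GFP library exceeded the highest Arrdc2 library by a wide margin, and Npm1 fell 1.49-fold (95% interval 1.396 to 1.59; log2 difference -0.46 ± 0.04 SE; limma adjusted p = 4.38e-08). Ncl encodes nucleolin, an RNA-binding protein of early ribosomal RNA processing. It had 21790.3, 21508, 20599.7, 21828 and 23235 reads in GFP and 15548, 16519.5, 15565, 17779 and 16524 in Arrdc2, again without overlap, and fell 1.33-fold (95% interval 1.25 to 1.41; limma adjusted p = 1.18e-06). Ddx21, an RNA helicase that works with both the polymerase and the snoRNPs, had 8215, 8031, 7781, 8464 and 8758 reads in GFP and 5569, 5854, 5761, 5983 and 5992 in Arrdc2. The Arrdc2 libraries lay close together here, and Ddx21 fell 1.41-fold (95% interval 1.34 to 1.49; limma adjusted p = 2.71e-08).

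**Figure D3:**
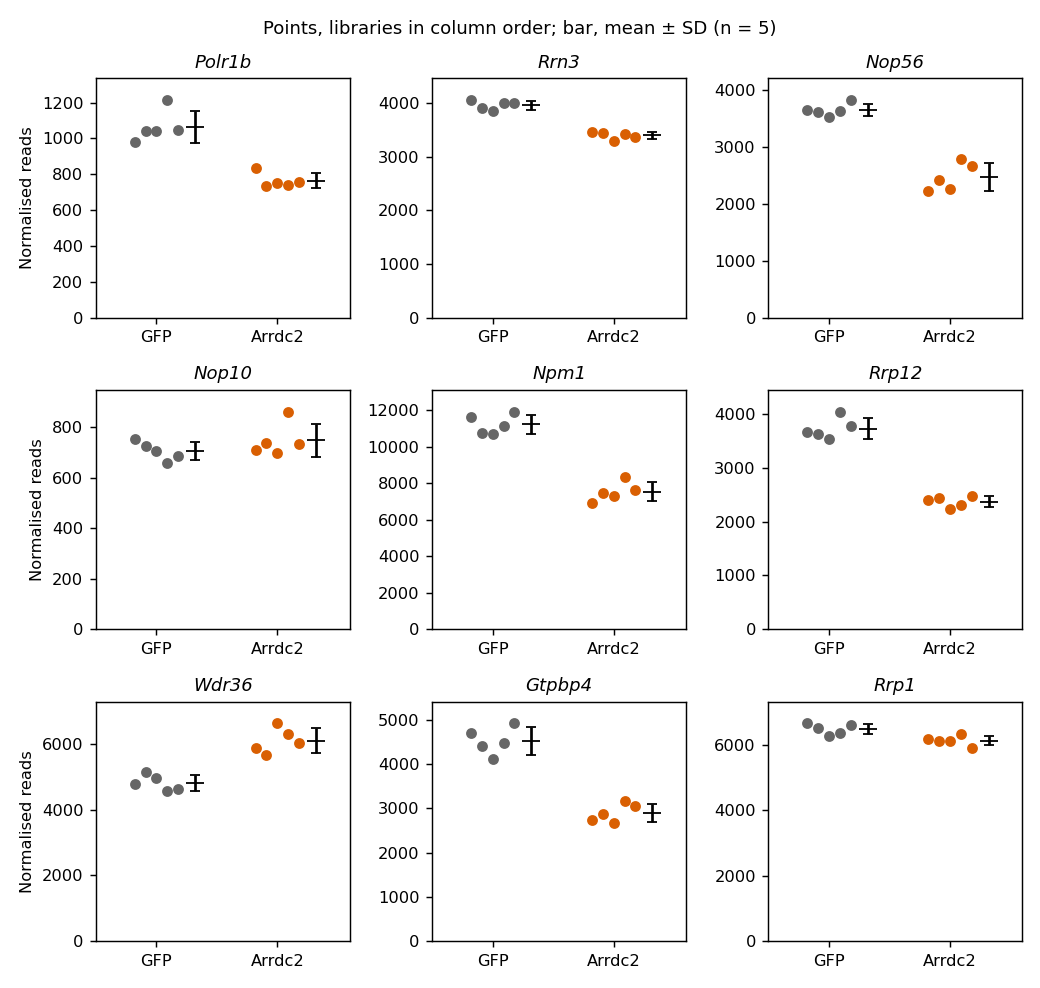
Normalised reads per library for 9 of the genes, with axes from 0; points are the 5 libraries of each group in column order, and the bar beside them is the mean ± SD (n = 5). Groups are separate for Polr1b, Rrn3, Nop56, Npm1, Rrp12 and Gtpbp4 with Arrdc2 lower and for Wdr36 with Arrdc2 higher, and they overlap for Nop10 and Rrp1.

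Of 25 small-subunit factors 22 fell, 1 rose and 2 were not called, with a median log2 difference of -0.25. Rrp12, a HEAT-repeat protein that in yeast is needed for maturation and export of pre-ribosomes, had 3674, 3623, 3529, 4040.5 and 3781 normalised reads in GFP and 2401, 2438, 2234, 2311 and 2480.2 in Arrdc2. The groups were far apart, 3729 ± 196 and 2373 ± 99.4 (SD, n = 5). Its fall of 1.57-fold was the largest of the 59 members in recovered reads (95% interval 1.48 to 1.67; log2 difference -0.50 ± 0.03 SE; limma adjusted p = 2.62e-09). Tsr1, a GTPase-like factor of late pre-small-subunit particles, had 4386, 4243, 4054, 4449 and 4499.5 reads in GFP and 2752, 2858, 2631, 3123 and 3055 in Arrdc2. It fell 1.502-fold without overlap (95% interval 1.402 to 1.61; limma adjusted p = 4.05e-08), although 32.3% of its annotated exon bases are shared with Srr on the opposite strand, and how strand was treated in the counting is not stated.

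Rrp9, a protein particular to the snoRNP around which the processome forms, had 1117, 1026, 1082, 1099 and 1165 normalised reads in GFP and 777, 731, 708, 772 and 711 in Arrdc2. It fell 1.48-fold without overlap (95% interval 1.39 to 1.59; limma adjusted p = 6.24e-08). Heatr1, the mouse counterpart of a yeast processome scaffold that also serves transcription of the ribosomal DNA, had 2961, 3026, 2958, 2989 and 3137 reads in GFP and 2059, 2163, 2040.0, 2391 and 2282 in Arrdc2. The GFP libraries were tight, the groups were separate and Heatr1 fell 1.38-fold (95% interval 1.29 to 1.47; limma adjusted p = 3.87e-07). The other 18 factors that fell ranged from Wdr43 (1.38-fold), Ddx10 and Nop14 (both 1.37-fold) and Nol6 (1.35-fold) at the larger end to Utp3 (1.14-fold), Bysl (1.11-fold) and Dcaf13 (1.09-fold) at the smaller. Between them stood Utp4, Imp4, Utp20, Utp18, Wdr75, Nat10, Nob1, Nol10, Utp15, Utp14a and Ltv1, from 1.34-fold to 1.18-fold; Utp14a shares 11.5% of its exon bases with a long noncoding RNA on the opposite strand. By voom with total reads as library size, Bysl and Dcaf13 were no longer called (limma adjusted p = 0.0539 and 0.0852).

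Wdr36 went the other way. It encodes a WD-repeat protein of the processome, the counterpart of yeast Utp21, yet its normalised reads were 4772, 5158, 4952, 4558 and 4612 in GFP and 5874, 5650.4, 6626, 6293 and 6033 in Arrdc2. Every Arrdc2 library lay above every GFP library, with library 9 the highest, and Wdr36 rose 1.27-fold (4810.4 ± 248 to 6095 ± 378, SD, n = 5; 95% interval 1.19 to 1.35; log2 difference 0.27 ± 0.04 SE; limma adjusted p = 2.05e-05). The call held in each of the 18 alternatives tried.

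Imp3, which binds the processome snoRNA together with Imp4, had 493, 433, 433, 443 and 462 reads in GFP and 442, 408, 392, 422 and 426 in Arrdc2. The highest Arrdc2 library overlapped the GFP range (1.08-fold lower, 95% interval 0.995 to 1.18; limma adjusted p = 0.141). Noc4l, in yeast the partner of Nop14, had 1500.4, 1368, 1414, 1504 and 1447 reads in GFP and 1379, 1402, 1328, 1306 and 1368 in Arrdc2, overlapping groups that limma did not call (1.07-fold lower, 95% interval 1.005 to 1.13; limma adjusted p = 0.0978). Of 28 further small-subunit genes from a fixed list 24 fell and 0 rose. Esf1 (1.49-fold), Pwp2 (1.48-fold) and Aatf (1.42-fold) fell most on the deposited scale.

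Of 18 large-subunit factors 17 fell, with a median log2 difference of -0.25. Gtpbp4, a nucleolar GTPase of early large-subunit particles, had 4715, 4403, 4111, 4480.4 and 4927 normalised reads in GFP and 2748, 2866, 2678, 3172 and 3049.8 in Arrdc2. The groups were separate and Gtpbp4 fell 1.56-fold (95% interval 1.44 to 1.68; log2 difference -0.49 ± 0.04 SE; limma adjusted p = 4.72e-08). The mouse annotation names 7 pseudogenes after it, so some of its reads could have been split. Pseudogenes not named after their parent gene were not searched for, for this or any other member. Ftsj3, the counterpart of a yeast ribosomal RNA methyltransferase, had 5173, 5272, 4819.6, 5159 and 5459.9 reads in GFP and 3231, 3464, 3389.5, 3862 and 3739 in Arrdc2. It fell 1.47-fold without overlap (95% interval 1.37 to 1.57; limma adjusted p = 1.15e-07).

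Rrs1, which helps to place the smallest ribosomal RNA into the large subunit, had 2022, 1803, 1914, 2115 and 2058 normalised reads in GFP and 1536, 1420.1, 1364, 1389 and 1357 in Arrdc2. Library 6 was the highest Arrdc2 library, as for Polr1b, and Rrs1 fell 1.402-fold without overlap (95% interval 1.31 to 1.505; limma adjusted p = 6.71e-07). Nop2, a ribosomal RNA cytosine methyltransferase and long-used marker of dividing cells, had 3729, 3695, 3636, 3833 and 3848 reads in GFP and 2667, 2592, 2662, 3006 and 2823 in Arrdc2. It fell 1.36-fold without overlap (95% interval 1.28 to 1.45; limma adjusted p = 3.02e-07). Its promoter, shown as the one among large-subunit members with an E-box before the start site, is given as the 250 bases before the start (RefSeq, GRCm38.p6, chr6:125131633-125131882, plus strand; capitals mark CACGTG).
Nop2: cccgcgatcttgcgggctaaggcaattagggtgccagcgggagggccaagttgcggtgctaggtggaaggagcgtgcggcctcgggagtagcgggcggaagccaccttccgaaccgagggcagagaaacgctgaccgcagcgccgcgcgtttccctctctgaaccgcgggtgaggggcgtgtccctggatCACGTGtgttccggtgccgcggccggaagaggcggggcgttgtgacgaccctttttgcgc

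The trimeric PeBoW complex, needed for processing of the large-subunit ribosomal RNA, fell unevenly. Wdr12 fell 1.38-fold and Pes1 1.25-fold, whereas Bop1 went from a mean of 5146 to 4626 normalised reads, a 1.11-fold fall, although all its Arrdc2 libraries also lay below every GFP library. Among the other factors, the falls ran from Ppan and Nip7 (both 1.29-fold), Noc3l and Ebna1bp2 (both 1.28-fold), Nop16 and Rrp1b (both 1.26-fold), Mrto4 (1.23-fold) and Noc2l (1.22-fold) to Ddx18 (1.18-fold) and Brix1 (1.13-fold). Noc2l shares 20.9% of its exon bases with Samd11 on the opposite strand, and 2 pseudogenes are named after Mrto4. Rrp1, the paralog of Rrp1b, was the member of this role that was not called. It had 6661, 6522, 6270.4, 6364 and 6618 reads in GFP and 6186, 6124, 6108, 6323 and 5915 in Arrdc2, with 4 of 5 Arrdc2 libraries below the lowest GFP library (1.06-fold lower, 95% interval 1.01 to 1.11; limma adjusted p = 0.0825). It crossed the threshold with median centring, with library weights and without the mean-variance trend (limma adjusted p = 0.041, 0.0411 and 0.0372). Of 42 further large-subunit genes 35 fell and 0 rose, led on the deposited scale by Tma16 (1.66-fold), the giant ATPase Mdn1, which strips factors from pre-large-subunit particles (1.475-fold), and Nifk (1.39-fold).

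The exosome and RNase MRP trim and cleave ribosomal RNA precursors. The list named here exosome and RNase MRP genes also held the exonuclease gene Xrn2 and the cofactor genes Mtrex, C1d and Mphosph6. Of its 23 tested genes 8 fell and 0 rose, a share of 34.8% against 15.8% of all tested genes. The median log2 difference of the list was -0.065. The exosome nuclease genes Dis3 and Exosc10 fell 1.25-fold and 1.17-fold (limma adjusted p = 6.12e-06 and 0.000221), and Exosc2 fell 1.196-fold (limma adjusted p = 0.00109). Across the 5 fixed lists of genes outside the 59, 116 were tested, 77 fell and 0 rose, with a median log2 difference of -0.14; these lists were also written with results of these data known.

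**Figure D4:**
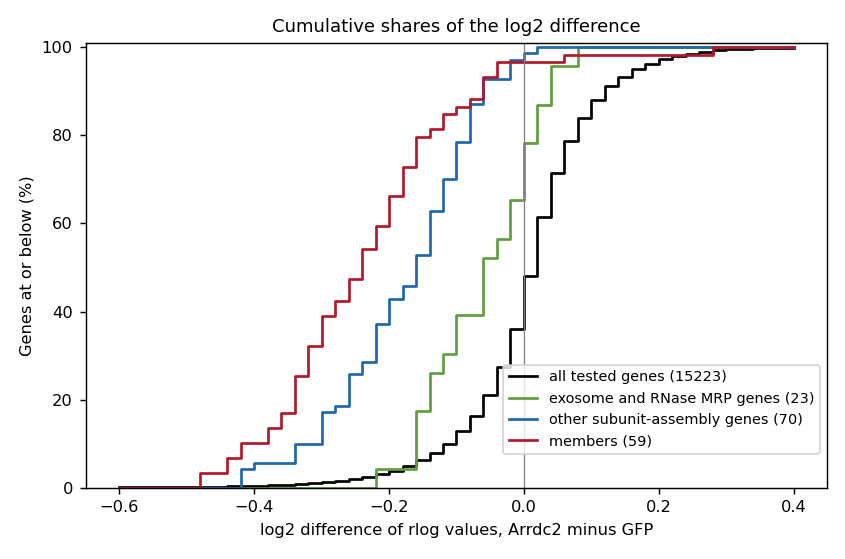
Cumulative share of genes (y axis, %) at or below each log2 difference of the deposited values, Arrdc2 minus GFP (x axis), for the 59 members, 70 other subunit-assembly genes, 23 exosome and RNase MRP genes and all 15223 tested genes. Between log2 differences of -0.16 and -0.10, 79.7% to 86.4% of the members, 52.9% to 78.6% of the other assembly genes, 17.4% to 39.1% of the exosome and RNase MRP genes and 6.25% to 12.8% of all tested genes have been reached; the curves cross near both ends.

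Promoter sequences were found in RefSeq (GRCm38.p6, 250 bases before to 50 bases after each start) for 51 of the 59 genes, with 60 promoters between them. A gene was counted where any of its promoters held the letters. The shares of all promoters are instead per promoter and include untested genes, so they are not measured alike. CACGTG, the same on both strands, occurred in 10 of these 51 (19.6%), against 11.6% of 10702 tested genes with a promoter and 7.15% of all 32851 promoters in the table. All 10 genes with a match were among those that fell, as were most of the 51. CCGGAAG on either strand, letters bound by ETS-family factors, occurred in 20 genes (39.2%), against 19.2% of the tested genes and 8.86% of all promoters. Rrn3, Nop2, Utp4, Ltv1, Tsr1 and Utp18 were among these 20 and also held CACGTG. GCGCATGC on either strand, part of the NRF1 motif, occurred in 3 (5.88%), against 5.73% of the tested genes and 2.71% of all promoters. The stretches around each E-box outside the Rrn3 and Nop2 promoters are shown so that their position and flanks can be compared. Each has 7 bases on either side of the capitals, on the strand of the gene. No E-box overlaps another of the searched motifs. Capitals mark CACGTG only, so CCGGAAG is unmarked where it occurs, as in the Nop2 promoter shown above. The E-box starts 121 bases before the start site in Imp4 and 20 bases before it in Utp18, and in the others at base 3 (Pes1), 16 (Utp4), 18 (Wdr43), 25 (Tsr1), 29 (Ltv1) or 38 (Utp20) of the transcript.
Imp4, chr1:34439701-34439720, plus strand: cttagacCACGTGacatccc
Utp18, chr11:93885774-93885793, minus strand: cgccggtCACGTGgcttgcg
Pes1, chr11:3963970-3963989, plus strand: ggcagggCACGTGcgggagg
Utp4, chr8:106893648-106893667, plus strand: aagcgcgCACGTGgggccgg
Wdr43, chr17:71616225-71616244, plus strand: gggcgaaCACGTGgctgccg
Tsr1, chr11:74898097-74898116, plus strand: tggtgcaCACGTGgactgca
Ltv1, chr10:13193097-13193116, minus strand: gtggaccCACGTGtggagct
Utp20, chr10:88826765-88826784, minus strand: ctaactaCACGTGaggaaaa

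Of the 10 genes with an E-box, Tsr1 (1.502-fold), Wdr43 (1.38-fold), Nop2 (1.36-fold), Utp4 (1.34-fold), Imp4 and Utp20 (both 1.32-fold) and Utp18 (1.29-fold) had a larger fold than the member median, and Pes1 (1.25-fold), Ltv1 (1.18-fold) and Rrn3 (1.17-fold) a smaller one. That median is of all 59 members, of which 51 had a promoter. Genes with CCGGAAG were not set against it in the same way, and neither motif was tested against the size of the falls. A match of letters is a description of the sequence and not a bound site. The transcript of Myc itself fell from 1168 ± 65.5 to 660.0 ± 27.5 normalised reads (SD, n = 5; 1.77-fold, 95% interval 1.65 to 1.899; limma adjusted p = 8.09e-10), and its partner Max went from a mean of 1440.1 to 1284 (limma adjusted p = 0.00582). The family member Mycl went the other way, from 416 to 523 with overlapping groups (1.26-fold higher; limma adjusted p = 0.00996), and Mycn stayed under 10 reads. Whether these changes are related to those of the nucleolar genes was not tested.

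Some of the genes also hold snoRNA genes within their bounds. In the GENCODE vM21 annotation, 7 of the 59 genes (11.9%) contain annotated snoRNA or scaRNA genes on their own strand, against 1.83% of 12917 tested protein-coding genes. They were Nop56 with 5 snoRNAs, Nop58 with 4, Ncl and Wdr43 with 3 each, Tsr1 and Ppan with 2 each and Dkc1 with 1. All 7 fell, where 88.1% of all 59 members did. The median log2 difference of the 7 was -0.37, against -0.23 for the other 52 members, a difference that was not tested. Those other members include Wdr36 and the 6 that were not called. Mature snoRNAs carry no poly(A) tail, and the values here are those of the host genes.

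Markers of other states of the culture also differed between the groups. Their counts stand beside 14.5% higher and 15.8% lower over all tested genes. Of 6 markers of cycling cells 5 rose, among them Cdk1 (1.35-fold; limma adjusted p = 0.000126) and Ccnb1 (1.34-fold; limma adjusted p = 0.00111), and their summed level ran from 13700 to 15783 normalised reads in GFP and from 15531 to 20446 in Arrdc2, highest in libraries 9 and 10. Of 7 markers of myoblasts and reserve cells 2 rose (Pax7, 1.24-fold, and Myf5, 1.17-fold) and 1 fell (Sdc4, 1.095-fold), and the summed levels overlapped, 7826 to 8978 in GFP and 8088 to 8557 in Arrdc2. Of the 8 myotube markers 3 fell (Myh8, 1.27-fold, Acta1, 1.135-fold, and Mylpf, 1.11-fold) and 0 rose. The part of these differences in the changes of the nucleolar genes was not tested.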

How the data were processed

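The values deposited by the authors are regularized log (rlog) values, a log2 scale, for 57010 gene identifiers in 10 libraries. On this scale each library's deviation from the mean of a gene is shrunk, so log2 differences understate changes. The submitters' processing notes name STAR 2.7.10a, DESeq2 1.30.1 and GRCm39. Counting tool, annotation release and strand setting were not given in the sources used. Columns carry a group and a library number that is not a replicate number of the labels, and are named here by group and column number.

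Symbols were matched by identifier to GENCODE vM21 (52029 identifiers matched). The 15223 rows whose rlog mean reached 3 entered a limma fit (limma 3.58.1, R 4.3.3; group only, mean-variance trend), with Benjamini-Hochberg adjustment over all of them and a threshold of 0.05. Reads were solved for from the penalised fit behind the rlog values (Python 3.11.15, SciPy 1.17.1). On 16053 genes not used for fitting, 99.2% of non-zero values (1 read or more) were whole to within 0.1 reads, where 20% would be by chance. Depth was about 18930000 to 28650000 reads per library and intervals cover the spread between libraries. Recovered reads gave normalised reads and folds with 95% intervals by limma voom; unless voom is named, an adjusted p-value refers to the rlog values. Both steps were tested on simulated data. Members, lists and tests were chosen with earlier results of these data known. Values in every library are given for 8 fixed members, the 4 members per role with the largest log2 difference, and all members not called lower, and 3 genes are named per further list. Promoters were matched by symbol, and their positions are those of GRCm38.p6. Alternatives were median centring, quantile normalization, other filters on low values, library weights, no trend, voom with either library size, and leaving out each library.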

Additional observations from a re-analysis of the deposited data

Results flagged for a closer look

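In 118 groups of 5 libraries (59 members in GFP and in Arrdc2), 2 held a library whose gap to the nearest other exceeded 0.71 of the group's range, where chance flags about 1 group in 20. Polr1b in Arrdc2 library 6 stood at 837.2 normalised reads, above the other Arrdc2 libraries at 734.1 to 757.5 and below every GFP library. Nop10 in Arrdc2 library 10 stood at 860.5 normalised reads, above the other Arrdc2 libraries at 697.2 to 738.0.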

How the results depend on the processing

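The 18 alternatives changed the call of 3 members (Bysl, Dcaf13 and Rrp1, as given above) and the direction of none, and 50 of the 52 members called lower stayed so in every alternative. The count of members lower was 52 without any single library, and their median log2 difference then ran from -0.2642 to -0.2358. It was larger on the unshrunken scale of recovered reads, -0.3568 by voom and -0.3167 by voom with total reads, by the construction of that scale. Over all genes, leaving out a library gave 2075 to 2365 lower and 1845 to 2233 higher. Of the 116 further pathway genes, 73 to 81 were lower and 0 to 1 higher without a library, and 65 lower and 1 higher by voom with total reads. The gene that was higher there, without GFP library 7 and without Arrdc2 library 6 was C1d, named after its values were seen (limma adjusted p = 0.0184, 0.0466 and 0.0411); the cause was not tested. No paired analysis was possible because the numbers in the column names are not those the labels give the replicates. Recovered counts are least exact for the most abundant genes (89.4% of values whole to within 0.1 reads), which touches Ncl.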
